A study of Homo sapiens with 9 samples.

Results

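The genes examined here are the 5 anti-apoptotic members of the BCL2 family: BCL2, BCL2L1 (which encodes BCL-XL), BCL2L2 (BCL-W), MCL1 and BCL2A1 (BFL-1). They were chosen by name, and every probe set annotated to exactly 1 of these symbols was taken, which gave 17 of the 54613 non-control probe sets on the array. BCL2 and BCL2L1 have 4 probe sets each, BCL2L2 has 2, MCL1 has 6 and BCL2A1 has 1. Expression was measured on 9 Affymetrix arrays in H69, an established human small cell lung cancer line, and every value is on a log2 scale. The control cells had received the solvent DMSO, although the treatment label of these samples reads none. The other groups received the phosphoinositide 3-kinase (PI3K) inhibitor PIK75 at 100 nM or TGX221 at a labelled 1 mM, all for 24 h in complete medium, with 3 arrays per group. PIK75 is known as an inhibitor of the p110α isoform that also acts on other kinases, and TGX221 as an inhibitor of p110β. The TGX221 dose is given as labelled and its unit could not be checked. Both doses and compounds differ, so differences between the inhibitors cannot be tied to the isoform. Nothing in the labels says that arrays of a group came from separate cultures, and the p-values therefore rest on array-to-array spread alone, which can be purely technical. Cells were measured in bulk, so fewer cells that carry a transcript and less of it per cell cannot be told apart.

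Anti-apoptotic BCL2 proteins sit mainly on the outer mitochondrial membrane and bind the effectors BAX and BAK, which would otherwise form pores and release cytochrome c. BH3-only proteins such as BIM, NOXA and BID occupy the groove of the anti-apoptotic proteins or act on the effectors directly. Small cell lung cancer is known for abundant BCL2, and BCL-XL and MCL1 are common partners in its survival. BCL2 and BCL2L1 are alternatively spliced: the beta form of BCL2 lacks the membrane anchor of the alpha form, and the short form of BCL2L1 promotes death. MCL1 has a short-lived transcript and protein. An Affymetrix probe set reads a stretch of transcript, usually near the 3' end, so probe sets of 1 gene can read different transcripts. Names that end in s_at or a_at mark probes shared by several transcripts, and x_at marks probes that may also bind other genes. The position of each probe set within its gene was not analysed here. Brightness also depends on the probes, so a value is compared only with the same probe set on other arrays.

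With PIK75, 13 of the 17 probe sets passed the test, 6 higher and 7 lower than control (limma over all 9 arrays, adjusted p below 0.05 by Benjamini and Hochberg). Over all probe sets 50.2% passed, 30.3% higher and 19.9% lower, so many genes outside the family also passed. The median difference of the 17 was 0.06 on the log2 scale, beside 0.08 over all probe sets. The probe sets of a gene did not move together: BCL2, BCL2L1, BCL2L2 and MCL1 each had at least 1 probe set called higher and at least 1 called lower as deposited. The only rises of BCL2L1, BCL2L2 and MCL1 were not called under any of the 4 other scalings, whereas BCL2 kept calls in both directions under all but the hybridization spikes. The 3 falls above 1.5-fold were in BCL2 (203685_at), BCL2L2 (209311_at) and MCL1 (200798_x_at). With TGX221, 1 of the 17 passed, the dim probe set of BCL2A1, where 0.269% of all probe sets did (0.207% higher and 0.0623% lower).

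**Figure D1:**
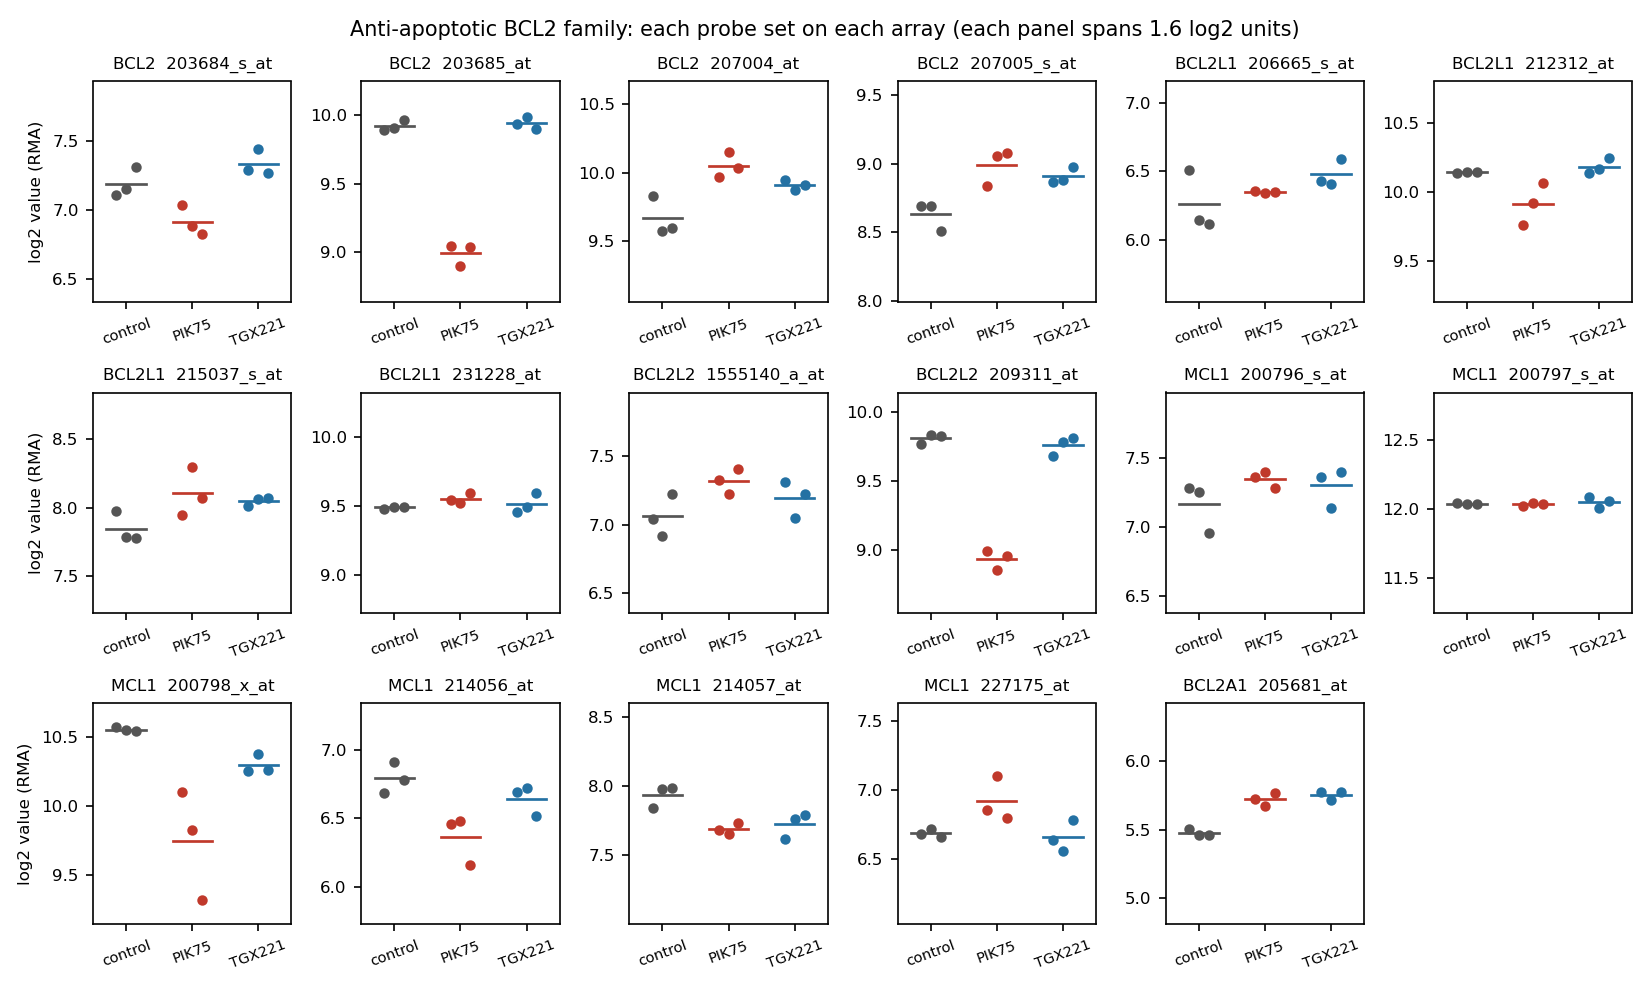
Log2 value (vertical axis) of each of the 17 probe sets on each array (points) with the group mean (line), for control, PIK75 and TGX221. The PIK75 points of BCL2 203685_at (8.90 to 9.05), BCL2L2 209311_at (8.85 to 8.99) and MCL1 200798_x_at (9.32 to 10.10) lie below all control points.

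Across the series, arrays of 1 group correlated at r = 0.9957 to 0.9982 (Pearson, across probe sets, which are not independent). Control and PIK75 arrays correlated at 0.9743 to 0.9811. The 9 measured neuroendocrine markers expected of this line all had control means of at least 6, among them INSM1 at 13.05 and CHGA at 12.81. With PIK75, 5 of them were lower and 1 higher, and their mean was at least 11.97 on every control array and 11.61 to 11.65 with PIK75, with the largest falls in DDC (-1.21) and NCAM1 (-0.66). Among the brightest probe sets of all genes, 33.3% passed higher and 24.7% lower with PIK75. The part of these markers in the results was not tested. The gap between 3' and 5' actin probe sets, a sign of RNA and labelling quality, was 0.24 to 0.44 in control, 0.26 to 0.41 with TGX221 and 0.47 to 1.13 with PIK75, highest on PIK75 replicate 5. The same gap for GAPDH was -0.05 to 0.01 in control, 0.003 to 0.02 with TGX221 and -0.002 to 0.08 with PIK75. The mean shift with PIK75 was 0.05 for GAPDH and 0.39 for actin. The part of the actin gap in the results was not tested beyond the fit that carries it as a covariate. Every PIK75 array had a wider actin gap than every control array, so that fit cannot tell the gap from PIK75. Over all probe sets it called 18709 with PIK75, beside 27400 without the covariate. The split of small changes also depended on scaling. As deposited, 60.4% of the probe sets called with PIK75 were higher. This share was 45.9% with arrays centred on their medians, 42.2% after cyclic loess, 30.1% relative to the poly-A spikes and 2.20% relative to the hybridization spikes, which shift all differences by -0.35. Among the 17 probe sets, the split of 6 higher and 7 lower became 3 and 7, 3 and 6, 2 and 7, and 0 and 10 in the same order.

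BCL2, the founding member of the family, had probe sets called in both directions with PIK75. Probe set 203685_at, annotated with the reference record of the alpha transcript, read 9.89, 9.91 and 9.96 on the control arrays and 9.05, 8.90 and 9.04 with PIK75. All PIK75 arrays were below all control arrays, and the values within each group lay close together. The mean fell from 9.92 ± 0.035 to 8.997 ± 0.083 (SD, n = 3), a difference of -0.92 (SE 0.0561), or 1.90-fold (limma, adjusted p = 1.28e-07). The fall kept its sign and passed in each of the 22 alternatives run for it, with differences from -1.27 to -0.85. TGX221 arrays read 9.94, 9.98 and 9.90 on this probe set, a difference of 0.02 from control with a 95% interval of -0.10 to 0.14.

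A second probe set of BCL2, 203684_s_at, also fell. It read 7.11, 7.15 and 7.31 in control and 7.04, 6.89 and 6.82 with PIK75. The groups do not overlap, although their nearest arrays lie close together (log2 difference -0.28, SE 0.0759, adjusted p = 0.0105). The call was lost with the actin gap as a covariate (-0.24, adjusted p = 0.0919).

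The other two probe sets of BCL2, 207004_at and 207005_s_at, are annotated with the reference record of the beta transcript, and both rose. Probe set 207004_at read 9.83, 9.58 and 9.60 in control, 9.97, 10.15 and 10.04 with PIK75 and 9.95, 9.87 and 9.91 with TGX221. Every array of either inhibitor was above every control array. The difference with PIK75 was 0.38 (SE 0.0733, adjusted p = 0.00123), and with TGX221 it was 0.24 (adjusted p = 0.142), which did not pass. Probe set 207005_s_at read 8.69, 8.69 and 8.51 in control, 8.84, 9.06 and 9.08 with PIK75 and 8.86, 8.88 and 8.98 with TGX221. Here too neither inhibitor group overlaps the controls, with differences of 0.36 for PIK75 (adjusted p = 0.00229) and 0.28 for TGX221 (adjusted p = 0.114, or 0.0490 with array weights). Both comparisons use the same 3 control arrays. Relative to the hybridization spikes neither PIK75 rise passed (0.03, adjusted p = 0.754, and 0.0072, adjusted p = 0.938).

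The opposite moves of BCL2 can be read within each array, where any centring of arrays cancels. Probe set 207004_at minus 203685_at was -0.06, -0.33 and -0.36 in control, 0.92, 1.25 and 0.996 with PIK75, and 0.01, -0.11 and 0.01 with TGX221. The gap shifted on average by 1.31 with PIK75 and by 0.22 with TGX221, and its PIK75 values lie above all others. The gap between both beta-record probe sets was 1.04 in control, 1.06 with PIK75 and 1.00 with TGX221. These pairs were picked on their values and carry no test.

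**Figure D2:**
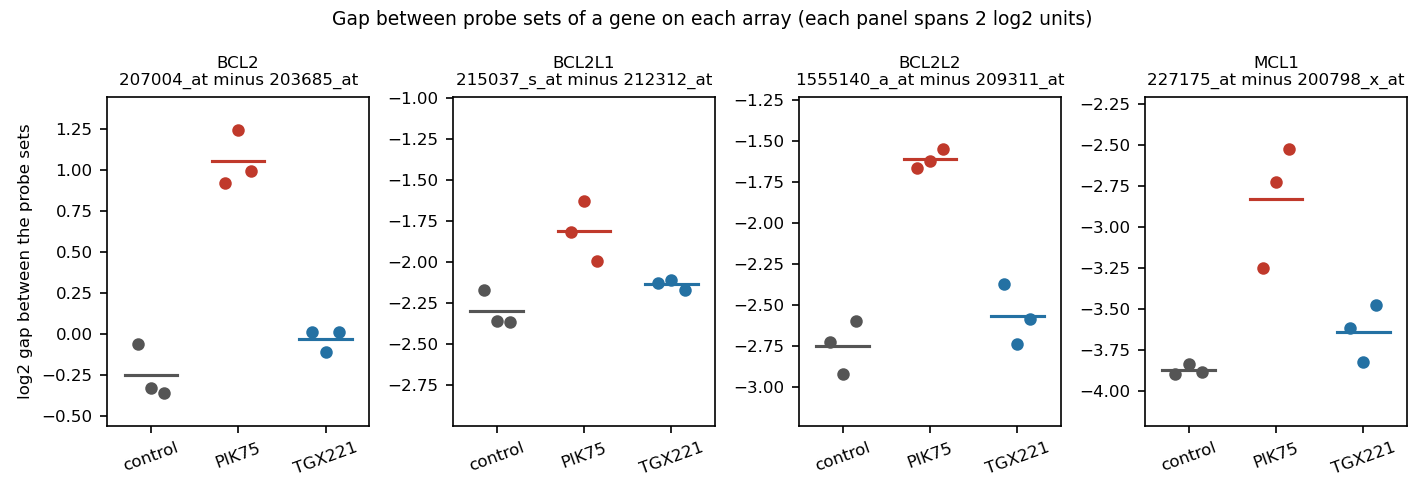
Gap in log2 value (vertical axis) between the probe sets of a gene with the highest and the lowest PIK75 difference, on each array (points) with the group mean (line). For BCL2 the gap was -0.36 to -0.06 in control and 0.92 to 1.25 with PIK75, and in all 4 genes the PIK75 points lie above the control points, as the choice of pairs sets.

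BCL2L2, which encodes the close BCL2 relative BCL-W, had the other large fall. Probe set 209311_at read 9.77, 9.84 and 9.83 in control and 8.99, 8.85 and 8.96 with PIK75. The control arrays lie close to each other and well above every PIK75 array. The mean fell from 9.81 ± 0.035 to 8.93 ± 0.073 (SD, n = 3), a difference of -0.88 (SE 0.0572), or 1.84-fold (limma, adjusted p = 2.18e-07). It passed in the same direction in each of the 23 alternatives run for it, from -1.23 to -0.81. TGX221 arrays read 9.69, 9.79 and 9.81, a difference of -0.05 with a 95% interval of -0.17 to 0.08.

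The second probe set of BCL2L2, 1555140_a_at, did not follow. It read 7.04, 6.92 and 7.23 in control and 7.33, 7.23 and 7.41 with PIK75, and the lowest PIK75 array equals the highest control array to the decimals shown. The difference of 0.26 passed (SE 0.0881, adjusted p = 0.0302), but it did not pass with arrays centred on their medians (0.20, adjusted p = 0.0852) and turned to -0.10 relative to the hybridization spikes (adjusted p = 0.398). It also did not pass without control replicate 1 (adjusted p = 0.0741), control replicate 3 (0.124), PIK75 replicate 1 (0.0639) or PIK75 replicate 5 (0.0978).

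MCL1 binds BIM, NOXA and BAK and is needed by many tumour cells, and its 6 probe sets gave 3 falls, 1 rise and 2 without a call under PIK75. The fall of 200798_x_at was the largest. This probe set read 10.57, 10.55 and 10.54 in control and 10.10, 9.83 and 9.32 with PIK75. The control arrays are nearly identical, whereas the PIK75 arrays are far apart (SD 0.397 against 0.016) and lowest on replicate 5, the array with the widest actin gap. The difference was -0.81 (SE 0.144), or 1.75-fold lower (limma, adjusted p = 0.000756). It passed in each of the 22 alternatives run for it and was smallest, -0.46, with the actin gap as a covariate. TGX221 arrays read 10.25, 10.38 and 10.26, below all controls, with a difference of -0.26 that did not pass (adjusted p = 0.409).

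The brightest probe set of MCL1, 200797_s_at, hardly moved. It read 12.04, 12.03 and 12.03 in control, 12.02, 12.04 and 12.03 with PIK75 and 12.08, 12.01 and 12.06 with TGX221. The difference with PIK75 was -0.0039 with a 95% interval of -0.11 to 0.10 (adjusted p = 0.949), an interval that does not reach the fall of 200798_x_at. Relative to the hybridization spikes it was lower (-0.36, adjusted p = 0.000247). Within arrays, 200797_s_at minus 200798_x_at widened from a mean of 1.48 in control to 2.28 with PIK75 and was 1.75 with TGX221.

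The dimmer probe sets of MCL1 divided as well. Probe set 214056_at read 6.69, 6.91 and 6.78 in control and 6.46, 6.48 and 6.16 with PIK75 (log2 difference -0.43, SE 0.0928, adjusted p = 0.00273). Its call was lost with the actin covariate (-0.27, adjusted p = 0.0653). Probe set 214057_at read 7.84, 7.98 and 7.98 in control, 7.68, 7.65 and 7.73 with PIK75 and 7.62, 7.76 and 7.79 with TGX221. Both inhibitor groups were below the controls. The difference was -0.25 for PIK75 (adjusted p = 0.00601) and -0.22 for TGX221, which passed only relative to the hybridization spikes (-0.28, adjusted p = 0.0493) and not as deposited (adjusted p = 0.128). Probe set 227175_at moved up with PIK75, from 6.68, 6.71 and 6.66 to 6.85, 7.10 and 6.79. This rise of 0.23 (adjusted p = 0.0342) was -0.12 relative to the hybridization spikes and 0.18 with arrays centred on their medians (adjusted p = 0.102). It did not pass with the replicate block (adjusted p = 0.0639) or without control replicate 1 (0.0762), control replicate 3 (0.0594), control replicate 5 (0.0901) or PIK75 replicate 3 (0.136). Probe set 200796_s_at was 0.18 higher with PIK75 and did not pass (adjusted p = 0.116).

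BCL2L1, whose long form BCL-XL guards mitochondria in many cell types, had 1 fall and 1 rise among its 4 probe sets with PIK75. Its brightest probe set, 212312_at, read 10.14 on all 3 control arrays and 9.76, 9.92 and 10.06 with PIK75. The PIK75 arrays were all lower and differed among themselves by more than the controls did. The difference was -0.23 (SE 0.0702, adjusted p = 0.0189). The call was lost under cyclic loess, where the difference was -0.13 (adjusted p = 0.248). When PIK75 replicate 1 was dropped it was -0.15 (adjusted p = 0.0643). TGX221 arrays read 10.14, 10.17 and 10.24, which gave a difference of 0.04 with a 95% interval of -0.11 to 0.20.

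The remaining probe sets of BCL2L1 showed small values. Probe set 215037_s_at read 7.97, 7.79 and 7.78 in control, 7.95, 8.29 and 8.07 with PIK75 and 8.02, 8.06 and 8.07 with TGX221. PIK75 and control overlap, and the rise of 0.26 (adjusted p = 0.0243) did not pass with arrays centred on their medians (0.20, adjusted p = 0.0694) and was -0.10 relative to the hybridization spikes. It was also not called without control replicate 3 (adjusted p = 0.0813), control replicate 5 (0.0839) or PIK75 replicate 3 (0.0957). Probe set 206665_s_at, annotated with the record of the short, death-promoting form, was near the dim end, with 6.51, 6.15 and 6.12 in control and 6.36, 6.34 and 6.35 with PIK75. One control array lay above all PIK75 arrays and the other two below them (log2 difference 0.09, adjusted p = 0.430). Without control replicate 1 the difference was 0.22 and passed (adjusted p = 0.0223). Probe set 231228_at differed by 0.06 with PIK75 (adjusted p = 0.324) and was -0.29 relative to the hybridization spikes (adjusted p = 0.00129).

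BCL2A1, a target of NF-kB that is best known from blood cells, was read by 1 dim probe set, 205681_at. It read 5.51, 5.46 and 5.46 in control, 5.72, 5.67 and 5.77 with PIK75 and 5.77, 5.72 and 5.77 with TGX221. All arrays lay below 6, and its mean ranks at the 17.8th percentile of all probe sets. No detection call was used here. The inhibitor arrays were all above the controls, by 0.24 with PIK75 (SE 0.0496, adjusted p = 0.00185) and 0.28 with TGX221 (adjusted p = 0.0491). The PIK75 difference did not pass relative to the poly-A spikes (0.16, adjusted p = 0.200) and turned to -0.11 relative to the hybridization spikes. The TGX221 call held in 6 of 22 alternatives. It was lost, among others, without control replicate 1 (adjusted p = 0.0909), control replicate 3 (0.154), control replicate 5 (0.124), PIK75 replicate 1 (0.0599), PIK75 replicate 3 (0.0773), TGX221 replicate 2 (0.216) or TGX221 replicate 5 (0.237). The difference stayed at 0.27 to 0.30 in these fits. Over all 54613 probe sets, TGX221 had 1 call without PIK75 replicate 1 or 3 and 0 in the others of these fits.

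Leukocyte markers moved beside BCL2A1 with PIK75. The mean of the 7 measured markers was 6.95 to 7.05 on control arrays, 7.15 to 7.24 with PIK75 and 7.01 to 7.05 with TGX221, and 3 of them rose with PIK75. PTPRC, which defines leukocytes, was 6.45 in control and 6.39 with PIK75 (adjusted p = 0.457). Fibroblast markers rose as well, 5 of 5, with a mean of 7.77 to 7.81 in control and 8.03 to 8.13 with PIK75, as did 2 of 4 endothelial markers (7.24 to 7.29 and 7.42 to 7.51) and 2 of 4 other epithelial markers (8.68 to 8.77 and 8.80 to 8.96). Beside these counts, 33.3% of all genes passed higher with PIK75 by their brightest probe set. The median PIK75 difference was 0.07, 0.13 and 0.14 in the 3 dimmer of 4 equal brightness classes of probe sets and -0.10 in the brightest class. The part of this dependence on brightness in the small rises or the falls of the family was not tested.

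**Figure D3:**
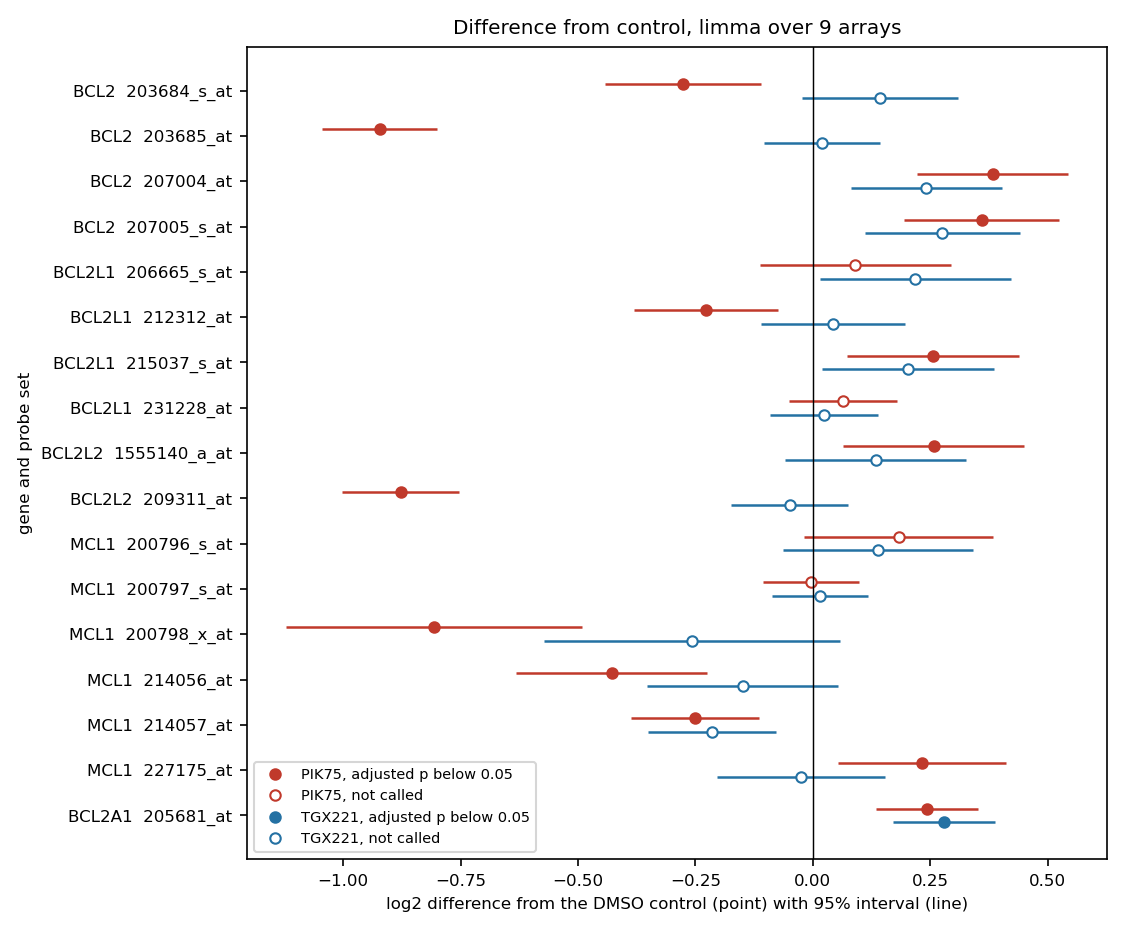
Log2 difference from control (horizontal axis, points) with 95% interval (lines) for each probe set, PIK75 in red and TGX221 in blue, filled where the adjusted p is below 0.05. BCL2 203685_at (-0.92), BCL2L2 209311_at (-0.88) and MCL1 200798_x_at (-0.81) stand to the left for PIK75, while every TGX221 point lies between -0.26 and 0.28.

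One value per gene hid these opposite moves. When each gene was represented by its brightest probe set, BCL2 was higher with PIK75 (0.38, adjusted p = 0.000735). The brightest was the one with the highest mean over all 9 arrays, so the PIK75 arrays took part in this choice. In control the brightest of BCL2 was 203685_at (mean 9.92, against 9.67 for 207004_at), whose PIK75 difference was -0.92. When the probe sets of a gene were averaged, BCL2 was lower (-0.11, adjusted p = 0.0210). MCL1 went from -0.0039 (adjusted p = 0.946) to -0.18 (adjusted p = 0.0152), and BCL2L1 from -0.23 (adjusted p = 0.0140) to 0.05 (adjusted p = 0.474). BCL2L2 was lower by either choice, at -0.88 and -0.31.

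With TGX221 the differences of the family from control lay between -0.26 and 0.28. Of the 17 probe sets, 6 had unadjusted p-values below 0.05 (16.4% of all probe sets did), and only BCL2A1 passed after adjustment. On 6 of the 17 the TGX221 arrays did not overlap the controls, which held for 21.6% of all probe sets (10.9% above and 10.7% below). They were 207004_at and 207005_s_at of BCL2, 215037_s_at of BCL2L1 and 205681_at of BCL2A1 above, and 200798_x_at and 214057_at of MCL1 below. The largest TGX221 differences were 0.28, for BCL2 207005_s_at and BCL2A1, and -0.26, for MCL1 200798_x_at. With PIK75 the arrays of 12 of the 17 probe sets did not overlap the controls, 5 above and 7 below, beside 57.5% of all probe sets (36.2% above and 21.4% below).

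Between the inhibitors, 7 of the 17 probe sets passed, 6 lower and 1 higher with PIK75, where 37.2% of all probe sets passed, 20.3% higher and 16.9% lower. The arrays of 9 did not overlap, 2 above and 7 below, beside 48.1% of all probe sets (29% above and 19% below). This comparison does not use the control arrays other than for the estimate of spread. The largest differences were -0.94 (SE 0.0561) for BCL2 203685_at (adjusted p = 1.41e-07), -0.83 (SE 0.0572) for BCL2L2 209311_at (adjusted p = 4.37e-07) and -0.55 (SE 0.144) for MCL1 200798_x_at (adjusted p = 0.0107). BCL2 203684_s_at was lower by 0.42 (adjusted p = 0.00100) and BCL2L1 212312_at by 0.27 (adjusted p = 0.0103), the latter not under cyclic loess (-0.18, adjusted p = 0.108). MCL1 214056_at was -0.28 (adjusted p = 0.0339) and MCL1 227175_at 0.26 (adjusted p = 0.0283). The MCL1 200798_x_at difference did not pass with the actin covariate (-0.21, adjusted p = 0.202), and without PIK75 replicate 5 it passed at a smaller size (-0.33, adjusted p = 0.00769). MCL1 214056_at was lost with the actin covariate (-0.13, adjusted p = 0.418), array weights (0.0592) or the replicate block (0.0615). It was also lost without PIK75 replicate 5 (adjusted p = 0.123), TGX221 replicate 2 (0.0985) or TGX221 replicate 3 (0.114), and 227175_at with the replicate block (0.0973) or without PIK75 replicate 3 (0.107), TGX221 replicate 2 (0.0763) or TGX221 replicate 3 (0.110). The 227175_at difference was -0.03 relative to the hybridization spikes.

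The beta-record probe sets of BCL2 did not pass between the inhibitors. The difference was 0.14 for 207004_at (95% interval -0.02 to 0.30) and 0.08 for 207005_s_at (-0.08 to 0.25). For BCL2A1 it was -0.04 (-0.14 to 0.07), and for MCL1 214057_at -0.04 (-0.17 to 0.10). Relative to the hybridization spikes 207005_s_at passed lower with PIK75 (-0.20, adjusted p = 0.0291).

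**Figure D4:**
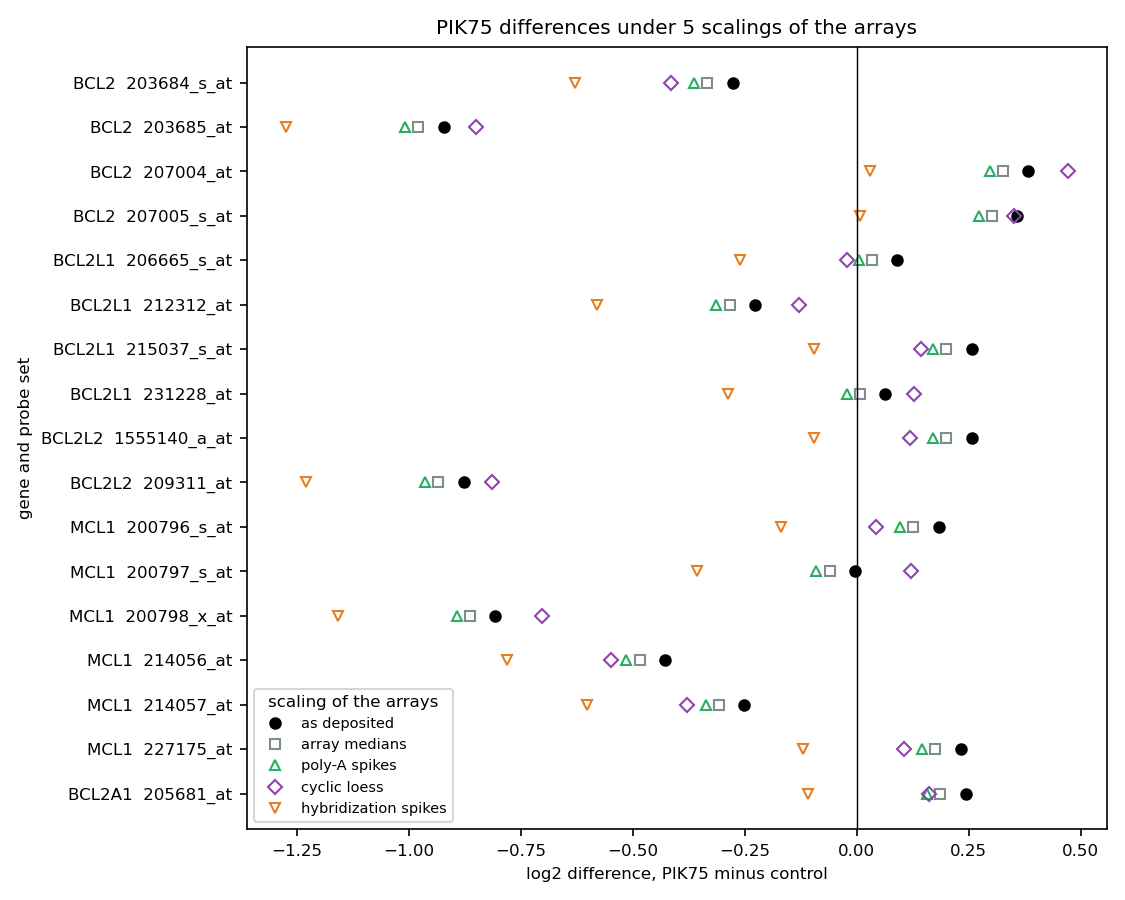
Log2 difference of each probe set, PIK75 minus control (horizontal axis), as deposited and with arrays centred on their medians, the poly-A spikes or the hybridization spikes, or after cyclic loess. Falls of BCL2 203685_at, BCL2L2 209311_at and MCL1 200798_x_at stay left of 0 under all 5, while 7 of the 9 positive values cross 0 with the hybridization spikes and BCL2 207004_at stays at 0.03.

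Genes that work with the anti-apoptotic proteins were described in lists by role, through their brightest probe set over all 9 arrays. On this measure 33.3% of all genes passed higher and 24.7% lower with PIK75, as deposited. List counts under other scalings stand beside these counts over all 54613 probe sets. Relative to the hybridization spikes, 847 passed higher and 37576 lower with PIK75. Relative to the poly-A spikes these were 5066 and 11743. With arrays centred on their medians they were 10317 and 12179, and after cyclic loess 8709 and 11908. Over the 75 measured genes of the lists, 24 rose and 24 fell with PIK75. With TGX221, limma called 0 of the 75, while 13 (17.3%) had an unadjusted p below 0.05, beside 16.4% of all probe sets. The smallest adjusted p among them was 0.0867, and over all genes 0.278% passed higher and 0.0455% lower with TGX221.

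The pore-forming effectors divided. BAX fell from a mean of 9.55 to 9.20 (log2 difference -0.35, SE 0.0621, adjusted p = 0.000795), and its other probe set fell too. BOK rose (0.35, adjusted p = 0.00504) but was level, at -0.0008, relative to the hybridization spikes, and BAK1 was at 0.10 (adjusted p = 0.297). BCL2L10, a further anti-apoptotic member, rose by 0.29 as deposited (adjusted p = 0.00385) and did not pass with 3 of the 4 other scalings. Its value was -0.06 relative to the hybridization spikes. For BOK and BCL2L10 alike, only 1 of 2 probe sets passed as deposited.

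Of 7 BH3-only genes, 3 rose and 2 fell with PIK75, with a median of 0.05 beside 0.09 over the brightest probe sets of all genes. PMAIP1, which encodes the MCL1 ligand NOXA, rose from 12.56 to 12.99 (0.43, SE 0.0736, adjusted p = 0.000557), but not relative to the hybridization spikes (0.08). HRK (0.29) and BAD (0.28), ligands of BCL-XL, rose as deposited but did not pass relative to the poly-A spikes. They were -0.06 and -0.07 relative to the hybridization spikes. As deposited, 4 of 5 probe sets of HRK and 1 of 3 of BAD passed, all higher. BID, which links death receptors to mitochondria, fell (-0.34, adjusted p = 0.00131), as did BIK (-0.40, adjusted p = 0.00504), named after its value was seen. The list had 0 higher and 4 lower relative to the hybridization spikes, and 1 higher and 2 lower relative to the poly-A spikes.

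BNIP3 and BNIP3L, mitochondrial membrane proteins of the family's edge that recruit the autophagy machinery, had the largest falls of all the lists (-1.49 and -2.34, adjusted p = 1.16e-05 and 3.14e-06). Among other BCL2-like genes BCL2L13, a mitophagy receptor, fell (-0.46, adjusted p = 6.86e-05), with 1 other probe set higher. BCL2L12 (0.26), BCL2L14 (0.30) and BCL2L15 (0.25) rose as deposited and were -0.09, -0.05 and -0.10 relative to the hybridization spikes. Only 1 of 6 probe sets of BCL2L14 and 1 of 3 of BCL2L15 passed as deposited.

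Downstream of the pore, 3 of 9 genes rose and 3 fell, and 1 rose and 7 fell relative to the hybridization spikes. APAF1, the scaffold of the apoptosome, fell from 9.32 to 8.76 (-0.57, adjusted p = 0.000178), with 1 other probe set higher. DIABLO, which blocks inhibitors of caspases, rose (0.40, adjusted p = 0.000414), but was 0.05 relative to the hybridization spikes. The outer membrane channel genes moved apart: VDAC2, which holds BAK at mitochondria, rose (0.52, adjusted p = 5.91e-06) and VDAC3 fell (-0.65, adjusted p = 8.52e-07).

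**Figure D5:**
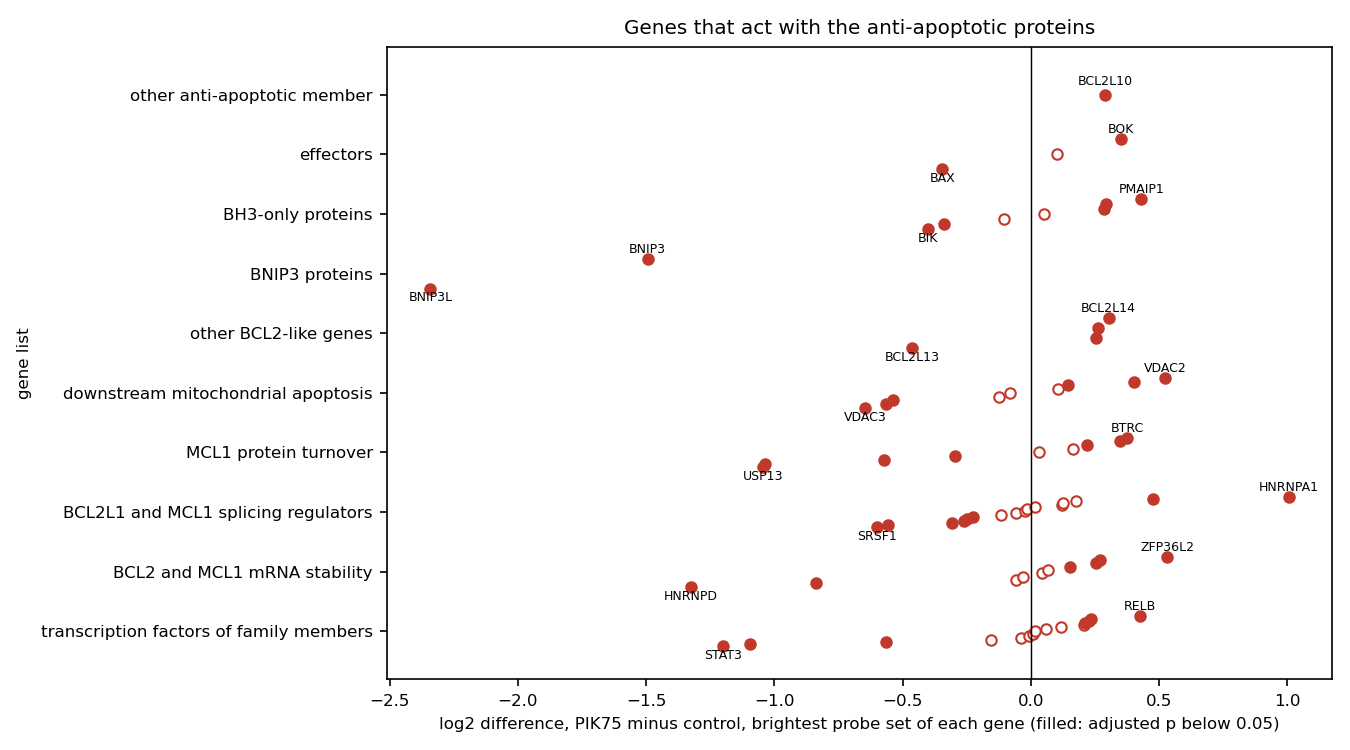
Log2 difference, PIK75 minus control (horizontal axis), of the brightest probe set of each gene in each list, filled where the adjusted p is below 0.05, with the outermost genes named. BNIP3L (-2.34), BNIP3 (-1.49), HNRNPD (-1.33) and STAT3 (-1.20) lie farthest left and HNRNPA1 (1.01) farthest right.

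Among 9 genes that set the life of MCL1 protein, 4 fell and 3 rose, while 5 fell and 0 rose relative to the hybridization spikes and 4 fell and 5 rose after cyclic loess. USP13 and USP9X, which remove ubiquitin from MCL1, fell by 1.04 (adjusted p = 3.42e-08) and 0.57 (adjusted p = 3.14e-06). GSK3B, a kinase that marks MCL1 for breakdown, fell by 1.04 (adjusted p = 2.02e-08), with 1 of its 5 probe sets higher. BTRC, a ubiquitin ligase subunit that reads this mark, rose by 0.37 (adjusted p = 0.000825), with 2 of its 5 probe sets higher and 1 lower, and was 0.02 relative to the hybridization spikes.

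Regulators of BCL2L1 and MCL1 splicing had 6 of 16 lower and 2 higher, with 5 higher and 3 lower after cyclic loess, 2 and 7 with arrays centred on their medians, 2 and 6 with the poly-A spikes, and 1 and 13 with the hybridization spikes. SRSF1, which favours the long forms, fell by 0.60 (adjusted p = 1.49e-06) and RBM25 by 0.56 (adjusted p = 7.87e-06), each with probe sets in the other direction too. The splicing factor SF3B1 rose (0.48, adjusted p = 2.03e-05; 0.12 and not past the test relative to the hybridization spikes), with 2 of its probe sets higher and 1 lower, and HNRNPA1 rose (1.01, adjusted p = 3.04e-08). The HNRNPA1 value comes from an x_at probe set, and the other two probe sets of the gene fell.

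RNA-binding proteins known to act on BCL2 or MCL1 transcripts had 4 of 10 higher and 2 lower as deposited and after cyclic loess. The split was 2 and 2 with arrays centred on their medians, 1 and 2 with the poly-A spikes, and 0 higher and 7 lower with the hybridization spikes. HNRNPD, the AU-rich element protein AUF1, fell from 12.82 to 11.50 (-1.33, adjusted p = 1.83e-08), with 5 of its 9 probe sets lower and 2 higher. TIA1 fell (-0.84, adjusted p = 2.22e-06), its relative TIAL1 rose (0.27, adjusted p = 0.00114) and ZFP36L2, which promotes decay of AU-rich transcripts, rose (0.53, adjusted p = 0.000175). Relative to the hybridization spikes TIAL1 was at -0.08 and ZFP36L2 at 0.18, neither past the test. TIAL1 had 2 probe sets higher and 2 lower, ZFP36L2 had 1 of each, and TIA1 had 5 of 7 lower and 1 higher.

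Of 15 transcription factors linked to the family, 3 fell and 4 rose. Relative to the hybridization spikes 10 fell and 0 rose, relative to the poly-A spikes 4 fell and 1 rose, and with array medians or cyclic loess 4 fell and 3 rose. STAT3, an activator of MCL1 and BCL2L1, fell from 10.60 to 9.40 (-1.20, SE 0.067, adjusted p = 6.68e-08), with 3 of its 4 probe sets lower and 1 higher. ETS1 fell by 1.09 (adjusted p = 5.97e-08), and CREB1, an activator of BCL2, fell by 0.57 (adjusted p = 9.02e-05). RELB, a subunit of NF-kB, rose by 0.42 (adjusted p = 0.00265) and was 0.07 relative to the hybridization spikes.

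The patterns most like each member were sought as the highest Pearson r over the 9 arrays, among the brightest probe sets of 17093 other genes with a mean of at least 6. BCL2L2 209311_at was followed closest by CSNK1A1 (r = 0.9983), PALLD (0.9977) and ESYT2 (0.9971), all lower with PIK75. BCL2 207004_at was followed by FBXO31 (0.987), SUSD3 (0.985) and FAAP20 (0.983), and BCL2L1 212312_at by ZMIZ2 (0.977), CPNE5 (0.974) and VSIG10 (0.964). For BCL2A1 the closest were ADAMTS10 (0.982), EBF4 (0.971) and MIR146A (0.971), and for MCL1 200797_s_at, which hardly varied, CHL1 (0.954), VASN (0.924) and DNAJC4 (0.899). These values describe 9 arrays that share 3 treatments and carry no test.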

How the data were processed

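The deposited table holds log2 values per probe set and array, which the authors computed with RMA according to the submitters' processing notes (no version named). RMA subtracts background, gives the probes of all arrays 1 distribution and summarises them, so a shift shared by most genes is lost. All 9 array columns were mapped and 0 were left out, and values entered as deposited. Of 54675 probe sets, 62 Affymetrix controls were set aside, and symbols came from the platform annotation. Differences were tested with limma (lmFit, eBayes; 3 group means, no covariate; 6 residual and 5.63 prior degrees of freedom) on 54613 probe sets, with Benjamini-Hochberg adjustment over all of them and a threshold of 0.05. The fit was checked on simulated data. Members are all probe sets with exactly 1 of 5 symbols. In each list up to 4 genes of smallest p are named, and per member the 3 genes of highest r. BIK is an exception. Some listed genes are not reported here. Members and lists were chosen with earlier results of these data known. The 3 arrays per group limit the precision. Alternatives were other scalings, filters, probe set choices, spreads, weights, covariates, thresholds and leaving out each array. R 4.3.3, limma 3.58.1, Python 3.11.15, pandas 2.3.3, numpy 2.4.6 and matplotlib 3.10.9 were used.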

Additional observations from a re-analysis of the deposited data

Results flagged for a closer look

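The hybridization spikes, which are added to the labelled RNA and lie outside the comparisons of genes, read higher with PIK75 than with DMSO on all arrays, with a mean of 11.52 to 11.56 over 18 probe sets against 11.15 to 11.24, a difference of 0.352. TGX221 arrays read 11.18 to 11.28. The spikes set the zero of 1 of the scalings given beside the small rises of the family.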

How the results depend on the processing

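With PIK75 against control, 13 of 17 probe sets were called. The count was 8 of the 10 left without probe sets under the median brightness, 4 of 5 with the brightest probe set per gene, 4 of 5 with the mean of probe sets, 8 at an adjusted p below 0.01 and 3 at 1.5-fold or more. Over all features the counts in the same order were 18838 of 27307, 11947 of 19775, 12369 of 19775, 18121 of 54613 and 5139 of 54613. Leaving out an array gave 10 to 13 in the family and 22309 to 27186 over all 54613 probe sets. With TGX221 against control the count of 1 became 2 with array weights and 0 with array medians, cyclic loess, without those under the median brightness, with single-symbol probe sets only, the groups compared only, the replicate block, the actin covariate, an adjusted p below 0.01 or 1.5-fold, and 0 to 1 when an array was left out. Over all 54613 probe sets the TGX221 count was 2115 with array weights, 12 with array medians and 84 after cyclic loess. It was 0 with the groups compared only, the replicate block or an adjusted p below 0.01, 1 with the actin covariate and 4 at 1.5-fold. Leaving out an array gave 0 to 959. The count was 270 of 27307 without those under the median brightness and 99 of 41091 with single-symbol probe sets only. Between the inhibitors the count of 7 became 14 with hybridization spikes, 4 without those under the median brightness, 2 with the brightest or the mean of probe sets, 3 at an adjusted p below 0.01 and 2 at 1.5-fold, with 5 to 7 when an array was left out. Over all features these were 34963 of 54613, 14973 of 27307, 9379 and 9608 of 19775, 13106 of 54613 and 4294 of 54613. Leaving out an array gave 15923 to 19913 over all 54613 probe sets. The cause was not tested, other than that filters, thresholds and gene-level values leave fewer probe sets to call.

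Among single probe sets, values that changed sign with a call before or after did so with the hybridization spikes. Gene-level signs of BCL2 and BCL2L1 also depended on taking the brightest probe set (0.38 and -0.23) or the mean (-0.11 and 0.05). Against control these were BCL2L1 206665_s_at (-0.26), 215037_s_at (-0.10) and 231228_at (-0.29), BCL2L2 1555140_a_at (-0.10), MCL1 227175_at (-0.12) and BCL2A1 (-0.11). Against TGX221 they were BCL2 207005_s_at (-0.20), BCL2L1 215037_s_at (-0.23) and 231228_at (-0.25), MCL1 200796_s_at (-0.24) and 227175_at (-0.0295). Over all probe sets, 27400 were called with PIK75 against 16809 relative to the poly-A spikes, 38423 relative to the hybridization spikes and 5139 at 1.5-fold, and for TGX221 the 147 calls ranged from 0 to 2115 over the alternatives.

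The replicate numbers were used as a block in 1 alternative. Deviations of same-numbered control and PIK75 arrays correlated at -0.07, 0.09 and -0.0009, PIK75 and TGX221 arrays at 0.07 and 0.22, control and TGX221 arrays at 0.05 and 0.0053, and 2 of 6 arrays correlated best with their own number, so the numbers were not treated as pairs. With the replicate block 12 probe sets were called for PIK75, 0 for TGX221 and 5 between the inhibitors. Over all 54613 probe sets these were 25970, 0 and 16344, beside 27400, 147 and 20304 without the block. The calls lost were MCL1 227175_at against control (adjusted p = 0.0639) and TGX221 (0.0973), MCL1 214056_at against TGX221 (0.0615) and BCL2A1 for TGX221 (0.300). Leaving out TGX221 replicate 2 with no block also lost BCL2A1 for TGX221 (limma, adjusted p = 0.216). It lost MCL1 227175_at (0.0763) and 214056_at (0.0985) against TGX221 as well, but not 227175_at against control. The part of the block itself in these losses was not tested.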

Other observations

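A read-through transcript joins BCL2L2 to its neighbour PABPN1, which encodes a poly(A)-binding protein, and 2 probe sets carry their symbols together. Probe set 201544_x_at, annotated to BCL2L2, PABPN1 and the read-through, fell from a mean of 12.80 in control to 12.56 with PIK75 (log2 difference -0.23, SE 0.0462, limma adjusted p = 0.00149). Probe set 201545_s_at, annotated to PABPN1 and the read-through, fell from 10.36 to 9.87 (-0.48, SE 0.0562, adjusted p = 2.62e-05). With TGX221 the differences were 0.02 (adjusted p = 0.855) and -0.06 (adjusted p = 0.670). Both PIK75 falls are smaller than that of BCL2L2 209311_at (-0.88), and which transcript each probe set reads was not tested.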
